A study of Rattus norvegicus with 24 samples.

Results

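The cholesterol and fatty acid synthesis genes are 34 genes chosen by symbol from a list of enzymes and their SREBP regulators, out of 35032 genes in the count table, and all 34 were found. They were placed in 4 role groups, with 7 genes from acetyl-CoA to farnesyl diphosphate, 11 from squalene to cholesterol, 6 SREBP regulators and sterol carriers, and 10 for the synthesis, elongation and desaturation of fatty acids. mRNA was sequenced from a hypothalamic nucleus, the paraventricular nucleus (PVN), and an amygdalar one, the central nucleus (CEA), in rats that, by the study's methods, were male Sprague-Dawley animals. The normal control (NC) rats were not operated on, the HT rats underwent a partial hepatectomy, the EA rats (labelled HT+EA) had the hepatectomy and electroacupuncture at the hind-leg acupoints Zusanli and Sanyinjiao before and right after surgery, and the SEA rats had the hepatectomy and needles without current. Rats of every group were held in the restraint device, and brains were taken a day after the last session. Each of the 8 groups of region and treatment held 3 libraries, 24 in all. The HT, EA and SEA rats together are called operated rats here. The methods name 12 rats and say that the brain samples came from 1 batch but not from 1 animal, without tying single libraries to rats.

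Cells build cholesterol from acetyl-CoA through mevalonate, farnesyl diphosphate and squalene, and fatty acids from malonyl-CoA, with later elongation and desaturation. Both routes are driven by the SREBP transcription factors, which the carrier protein SCAP moves from the endoplasmic reticulum to the Golgi for cleavage when sterol is scarce, and which the INSIG proteins hold back when sterol is plentiful. The brain makes nearly all of its own cholesterol, because lipoprotein cholesterol does not cross the blood-brain barrier, and much of it goes into myelin made by oligodendrocytes.

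Total counts ran from 13152772 to 18607032 per library. The defining markers of each region were present. The PVN neuron list (Avp, Oxt, Trh, Sim1, Otp) summed to between 413 and 1320.2 CPM (reads scaled to library size) in the PVN and between 34.1 and 178 CPM in the CEA, and the striatal and central amygdala list to between 406 and 499.6 CPM in the PVN and between 2453 and 5717 CPM in the CEA. Some libraries stood apart. In the PVN, the count of genes at an adjusted p under 0.05 between operated and NC rats was 11 of 17211 with all libraries and 5885 of 17448 without NC replicate 2. In the CEA, the choroid plexus markers summed to 1057 CPM in NC replicate 2, 377 CPM in EA replicate 1 and 1790 CPM in SEA replicate 2, against 8.55 to 27.6 CPM in the other 9 libraries, and mitochondrial genes took 3.80% of the counts of EA replicate 2 against 10.1% to 14.4% in the others.

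The promoters of sterol genes are known for sterol regulatory elements, which bind SREBP, with CCAAT boxes and GC boxes beside them, bound by the cofactors NF-Y and Sp1. RefSeq promoter sequences of the rat assembly GRCr8, from 250 bases before to 50 after the start, were found for 27 of the 34 genes. A CCAAT box (CCAAT or its reverse complement) lay in that window of 20 of the 27 genes (74.1%), compared with 36.5% of 12615 promoters of genes tested here, and a GC box (GGGCGG) in 22 (81.5%) compared with 58.6%. The E-box CACGTG was present in 4 genes (14.8% against 8.70%). The strict sterol regulatory element TCACNCCAC, searched on both strands like the other motifs, was in 0 of the 27 and in 1.07% of the promoters of tested genes, which says only that these letters are not in this window. The 250 bases before the start are shown, with CCAAT boxes on either strand in capitals, for Hmgcs1, Fdps and Tm7sf2 from the sterol branch and for Fads1 and Scd from the fatty acid branch, because these genes carry the comparisons that follow.
Hmgcs1 (chr2:53382054-53382303, + strand): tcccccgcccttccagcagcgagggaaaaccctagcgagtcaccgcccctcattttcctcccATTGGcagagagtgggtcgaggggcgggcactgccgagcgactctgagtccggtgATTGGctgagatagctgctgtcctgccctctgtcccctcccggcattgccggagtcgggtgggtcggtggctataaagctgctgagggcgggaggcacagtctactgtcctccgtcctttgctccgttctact
Fdps (chr2:176804817-176805066, - strand): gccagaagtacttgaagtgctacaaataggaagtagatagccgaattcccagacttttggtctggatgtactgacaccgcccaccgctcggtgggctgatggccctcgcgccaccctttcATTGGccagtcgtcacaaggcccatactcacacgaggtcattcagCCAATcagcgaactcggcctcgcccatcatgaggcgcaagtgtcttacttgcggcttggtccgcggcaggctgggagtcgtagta
Tm7sf2 (chr1:212789542-212789791, - strand): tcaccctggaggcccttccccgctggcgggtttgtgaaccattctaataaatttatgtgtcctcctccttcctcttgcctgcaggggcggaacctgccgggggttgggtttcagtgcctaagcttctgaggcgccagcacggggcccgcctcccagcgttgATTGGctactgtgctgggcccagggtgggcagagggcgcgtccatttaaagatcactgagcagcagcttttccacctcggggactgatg
Fads1 (chr1:216252442-216252691, + strand): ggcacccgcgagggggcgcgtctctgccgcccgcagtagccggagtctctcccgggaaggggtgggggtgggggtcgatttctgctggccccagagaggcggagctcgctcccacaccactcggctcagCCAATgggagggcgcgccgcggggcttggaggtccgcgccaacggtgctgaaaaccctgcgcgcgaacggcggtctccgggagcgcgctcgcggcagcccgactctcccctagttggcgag
Scd (chr1:253231732-253231981, - strand): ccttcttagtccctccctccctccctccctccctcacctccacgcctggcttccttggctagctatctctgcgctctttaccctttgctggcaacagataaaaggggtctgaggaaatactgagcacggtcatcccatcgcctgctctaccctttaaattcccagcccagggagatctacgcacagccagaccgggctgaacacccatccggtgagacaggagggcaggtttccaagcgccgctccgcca
Hmgcs1 and Fdps held 2 boxes each in these bases, Tm7sf2 and Fads1 held 1, and Scd held 0. A match in these letters is a description of the sequence and not a measured binding site.

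Levels were compared between genes per kilobase of gene length, as the mean over the 12 libraries of a region. Hmgcs1, the HMG-CoA synthase that commits acetyl-CoA to sterols, was the most abundant of the 34 in both regions, at 115 ± 18.9 CPM per kilobase in the PVN and 111 ± 28.8 in the CEA (SD, n = 12). Acly, which makes cytosolic acetyl-CoA from citrate, followed at 88.6 ± 5.91 and 100.1 ± 10.2 CPM per kilobase. The next levels in the PVN were those of Fdps (78.3 ± 6.49), Msmo1 (72.8 ± 9.08) and Cyp51 (64.4 ± 8.64), neighbours in the order whose SDs overlapped. The lowest levels belonged to Scd, the stearoyl-CoA desaturase (5.15 ± 1.88 in the PVN and 4.89 ± 2.61 in the CEA), Hsd17b7, a sterol ketoreductase (1.62 ± 0.283 and 2.17 ± 0.455), and Elovl6, an elongase of saturated chains (0.610 ± 0.822 and 0.806 ± 1.46). Scd has the close relatives Scd2 and Scd4 in the table, and how reads shared by such copies were counted is not given in the sources used here, so its level is uncertain.

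**Figure D1:**
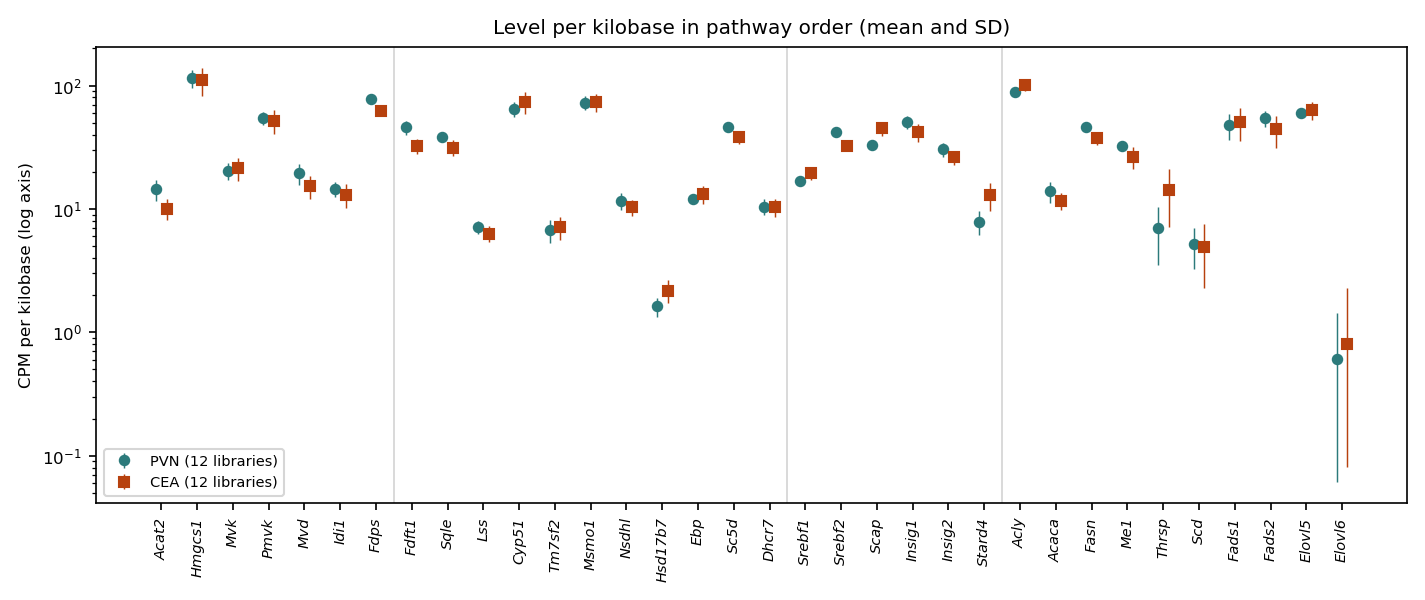
The vertical log axis gives the level in CPM per kilobase of gene length and the horizontal axis the 34 genes in pathway order, with circles for the PVN and squares for the CEA (mean over 12 libraries, whiskers SD, shortened at the low end where they would come near or pass 0, as for Elovl6). Hmgcs1 stood highest in both regions, and Hsd17b7 and Elovl6 lowest.

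The comparison of operated with NC rats asks how the genes differed after hepatectomy whether or not needles followed. Of the 18 sterol enzymes, 17 had negative values in the PVN and 18 in the CEA with all libraries. In each region 10 of them were lower at an unadjusted p under 0.05. The share of all tested genes lower at that level was 14.2% for the PVN but 1.27% for the CEA. The CEA count also turned on single libraries. Without NC replicate 2 it was 3 up to farnesyl diphosphate and 2 from squalene on. Without the 3 libraries high in choroid plexus markers these counts were 1 and 0. By edgeR with all libraries only Tm7sf2 passed the adjusted threshold, and only in the PVN. Tm7sf2, a sterol reductase late in the pathway (chromosome 1, 221425987 to 221431713, minus strand, in the table's own coordinates, which name no build), was at 20.8, 21.4 and 19.5 CPM in the PVN of NC rats and between 11.5 and 14.8 CPM in the 9 operated libraries, with a median of 13.8 CPM. The groups did not overlap, with a log2 fold change of -0.60 (SE 0.07, adjusted p = 0.0178 by edgeR). In the CEA Tm7sf2 was at 17.8, 23.9 and 18.1 CPM in NC rats and 11.8 to 20.0 CPM in operated rats, with HT replicate 2 inside the NC range (log2 fold change -0.43, SE 0.14, adjusted p = 0.9998). The PVN call was lost, with the fold change between -0.59 and -0.64, when any of 8 of the 12 libraries was left out (adjusted p 0.0537 to 0.158), those being NC replicates 1 and 3, HT replicate 2, EA replicates 1 and 3 and all 3 SEA replicates. With the replicate number as a block it was lost as well (adjusted p = 0.0609).

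In the PVN 1 of 34 genes passed the adjusted threshold, compared with 0.0639% of all genes tested. At an unadjusted p under 0.05, 14 genes (41.2%) were lower and 2 higher, against 14.2% lower and 15.6% higher among all genes, and 8 genes were lower with no overlap between groups (2.03% of all genes). The median log2 fold change of the 34 was -0.12, against -0.02 for all genes tested, and ran from -0.19 without NC replicate 1 to -0.07 without NC replicate 2. DESeq2 gave adjusted calls for 12 of the 34 (11 lower, 1 higher) and for 13.9% of all genes. Without NC replicate 2, the library that stood apart, edgeR gave 15 (44.1%; 12 lower, 3 higher) against 33.7% of all genes. In the CEA edgeR passed 0 of 34 and 0 of all 17046 genes tested, and DESeq2 passed 1, Scd (0.0645% of all genes). There, 16 genes (47.1%) were lower at an unadjusted p under 0.05 and 0 higher, against 1.27% lower and 1.55% higher among all genes, and 7 were lower without overlap (0.334% of all genes). The CEA median was -0.28 against -0.0011, with negative values for 31 of the 34. Without NC replicate 2, which had the highest level of 23 of the 34 genes in the CEA, 9 were lower and 1 higher (1.07% and 1.30% of all genes). Without EA replicate 2, low in mitochondrial counts, 19 were lower and 0 higher (1.64% and 1.87% of all genes). Without all 3 libraries high in choroid plexus markers, 5 were lower (Hmgcs1, Thrsp, Scd, Fads1 and Fads2) and 1 higher (Srebf1), against 1.04% and 0.969% of all genes. Leaving these libraries out moved the CEA median to -0.16 and the CEA log2 fold changes by over 1.5 times for, among others, Tm7sf2 (to -0.23), Fdft1 (-0.20), Cyp51 (-0.28), Dhcr7 (-0.15), Sqle (-0.10), Lss (-0.09), Insig1 (-0.05), Fasn (-0.16), Mvk (0.32, a change of sign) and Srebf1 (0.37). It moved Scd to -1.03, Fads1 to -0.63, Fads2 to -0.61, Thrsp to -1.03, Hmgcs1 to -0.45 and Msmo1 to -0.26.

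**Figure D2:**
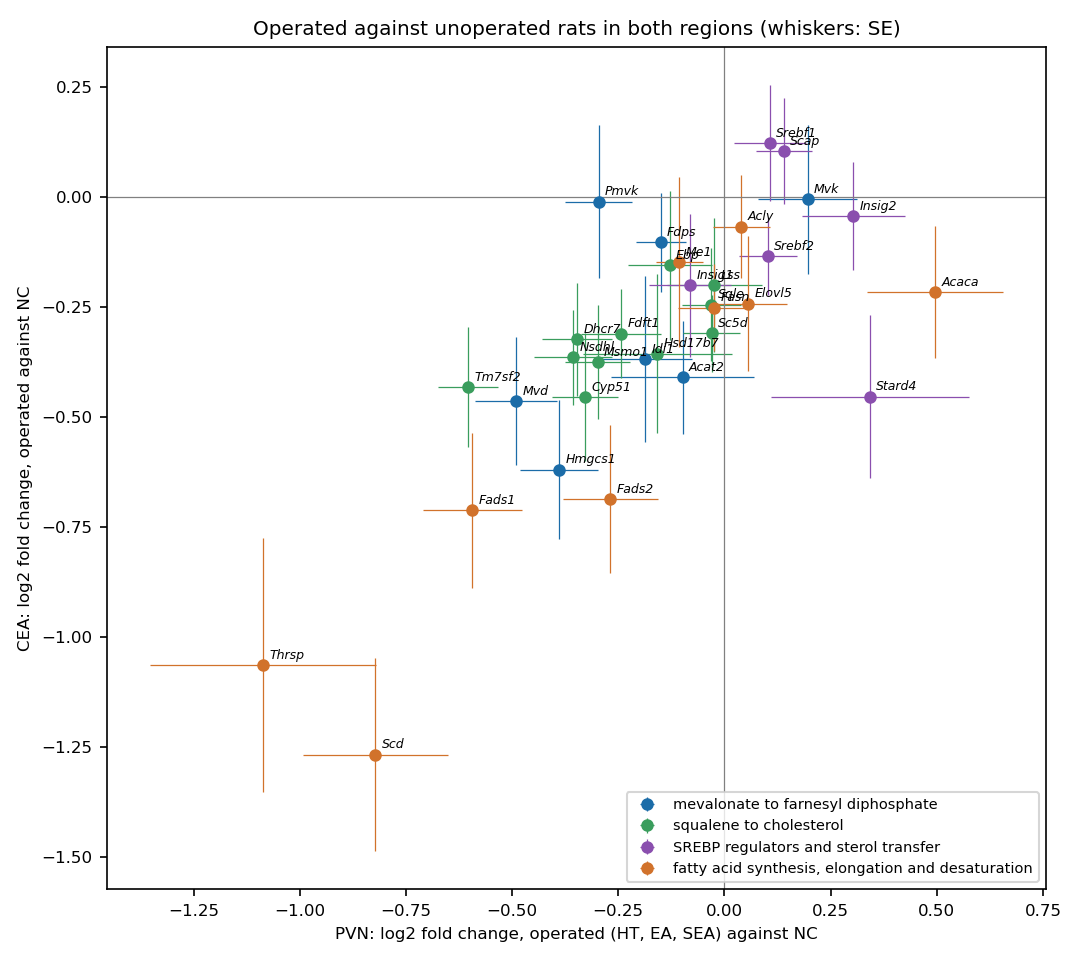
Each point is a gene, with its log2 fold change of operated against NC rats in the PVN on the horizontal axis and in the CEA on the vertical axis, whiskers for SE and colours for role (Elovl6, at very low counts, is not drawn). Of the 34 genes, 24 were negative in both regions, with Scd and Thrsp lowest, and Acaca, Stard4 and Insig2 lay to the right.

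By role, all 11 enzymes from squalene to cholesterol had negative values in both regions with all libraries, 6 of them at an unadjusted p under 0.05 in the PVN and 7 in the CEA, against 14.2% and 1.27% of all genes. Without PVN NC replicate 2 the PVN count was again 6, against 21.1% of all genes lower in that fit. There 8 of 11 were negative, with Lss, Sc5d and Sqle above 0. Without CEA NC replicate 2 the CEA count was 2 (1.07% of all genes). Without the 3 choroid plexus libraries it was 0 (1.04% of all genes), with 10 of 11 still negative. Of the 7 enzymes from acetyl-CoA to farnesyl diphosphate, 6 were negative in the PVN (4 at p under 0.05; 5 negative without NC replicate 2) and 7 in the CEA (3 at p under 0.05, or 1 without the choroid plexus libraries). Of the 10 fatty acid genes 4 were lower at that level in the PVN and 5 in the CEA (4 without the choroid plexus libraries), while among the 6 regulators and carriers the only such values were a higher Insig2 in the PVN and a lower Stard4 in the CEA. The same 12 genes were lower at an unadjusted p under 0.05 in both regions, namely Hmgcs1, Mvd, Fdft1, Cyp51, Tm7sf2, Msmo1, Nsdhl, Dhcr7, Thrsp, Scd, Fads1 and Fads2. Among all 16605 genes tested in both regions, 0.343% were lower at that level in both. Without NC replicate 2 in the CEA fit, 7 of the 12 stayed lower in both regions, 1 of them from squalene to cholesterol. The share of all genes was not counted for that fit. With the 3 choroid plexus libraries left out of the CEA fit, 5 of the 12 (Hmgcs1, Thrsp, Scd, Fads1 and Fads2) stayed lower in both regions, against 0.192% of all genes. Genes given with values in the next paragraphs other than Tm7sf2, Scd, Fads1 and Fads2 were chosen after their values were seen or belong to a set of leading genes given in every comparison.

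Among the enzymes up to farnesyl diphosphate, Hmgcs1 was at 398, 456 and 489 CPM in the PVN of NC rats and between 271 and 393 CPM in operated rats, with a median of 353 CPM. In the CEA the NC libraries held 436, 530.0 and 482 CPM and the operated libraries 226 to 412 CPM, with a median of 311 CPM. No operated library reached the NC range in either region, and the log2 fold changes were -0.39 in the PVN (SE 0.09, adjusted p = 0.0772) and -0.62 in the CEA (SE 0.16, adjusted p = 0.9998). Mvd, the mevalonate diphosphate decarboxylase, was lower without overlap in the PVN, at 37.7 to 47.1 CPM in NC rats and 24.1 to 36.0 CPM in operated rats (log2 fold change -0.49, SE 0.10). Mvk, the mevalonate kinase, went against the others in the PVN with a value of 0.20 (SE 0.12) and stood at -0.0059 in the CEA.

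In the squalene branch, Cyp51, the lanosterol demethylase, was at 244, 242 and 275 CPM in the PVN of NC rats and 175 to 226 CPM in operated rats (log2 fold change -0.33, SE 0.08). In the CEA its values were 264, 344 and 321 CPM in NC rats and 175 to 275 CPM in operated rats (-0.46, SE 0.15), where SEA replicate 3 reached into the NC range. Msmo1, Nsdhl and Dhcr7, which act after Cyp51, had PVN values of -0.30, -0.36 (-0.24 without NC replicate 3) and -0.35. Their CEA values were -0.38, -0.36 and -0.32. Msmo1 and Nsdhl were lower without overlap in both regions. Sqle, the squalene epoxidase and a rate-limiting step, had a value near 0 in the PVN, at 95.9, 111 and 113 CPM in NC rats and 90.9 to 115 CPM in operated rats (-0.03, SE 0.07). In the CEA Sqle was at 85.6, 106 and 99.0 CPM in NC rats and 72.0 to 102 CPM in operated rats (-0.25, SE 0.13). Lss, the lanosterol synthase, likewise showed values of -0.02 (SE 0.11) in the PVN and -0.20 (SE 0.15) in the CEA. The PVN value of Lss turned to 0.17 without NC replicate 2 and was -0.13 without NC replicate 1.

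Values of most regulators were nearer to 0 with all libraries. Srebf2, which encodes the factor for sterol genes, was at 197, 210.5 and 189 CPM in NC rats and 193 to 239 CPM in operated rats of the PVN (0.10, SE 0.07). In the CEA it was at 179.8, 173 and 174 CPM in NC rats and 130.3 to 167 CPM in operated rats, which did not overlap (-0.14, SE 0.09, unadjusted p = 0.145). Insig1, itself a well-known SREBP target, overlapped between groups in both regions, at 109, 133 and 139.7 CPM against 99.2 to 139 CPM in the PVN (-0.08, SE 0.10) and 94.4, 123 and 121 CPM against 70.2 to 121 CPM in the CEA (-0.20, SE 0.16). Its PVN value was -0.18 without NC replicate 1 and -0.0060 without NC replicate 3. Srebf1, which encodes the factor for fatty acid genes, was at 56.9, 79.6 and 76.2 CPM in NC rats and 68.8 to 82.0 CPM in operated rats of the PVN (0.11, SE 0.09), and at 70.3, 105 and 69.3 CPM against 76.2 to 95.9 CPM in the CEA (0.12, SE 0.13). NC replicate 2 held the 105 CPM, and without it the CEA value was 0.36, at an unadjusted p under 0.05. In the PVN Insig2 (0.30, SE 0.12) and Acaca, the acetyl-CoA carboxylase (0.50, SE 0.16), were higher at an unadjusted p under 0.05, with a wide spread inside the NC group. Acaca stood at 50.1 and 64.0 CPM in NC replicates 1 and 3 but at 103 CPM in NC replicate 2, against 89.4 to 111 CPM in operated rats. Stard4, a sterol carrier, was at 8.73, 27.1 and 16.6 CPM in NC rats and 18.7 to 23.8 CPM in operated rats (0.34). All 3 values turned on which NC library was present. Without NC replicate 2 they passed the adjusted threshold by edgeR, as did 33.7% of all genes. Their values were then 0.84 for Acaca (adjusted p = 2.68e-05), 0.53 for Insig2 (adjusted p = 0.000511) and 0.81 for Stard4 (adjusted p = 0.00415). Without NC replicate 1 Acaca was at 0.29 and Stard4 at 0.025, and without NC replicate 3 Insig2 was at 0.14.

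The largest differences were in the fatty acid branch. Scd was at 29.6, 38.2 and 33.3 CPM in the PVN of NC rats and between 11.6 and 32.8 CPM in operated rats, with a median of 20.1 CPM. In the CEA it was at 30.0, 44.5 and 41.5 CPM in NC rats and between 10.1 and 30.2 CPM in operated rats, with a median of 14.9 CPM. In each region 8 of the 9 operated libraries lay below all NC libraries, and SEA replicate 3 was the exception both times. The log2 fold changes were -0.82 in the PVN (SE 0.17, adjusted p = 0.0772) and -1.27 in the CEA (SE 0.22, adjusted p = 0.388). The CEA value passed with DESeq2 (adjusted p = 0.00131) and with the replicate block (adjusted p = 0.0483), but not with the block under the other numbering of CEA EA replicates 2 and 3 in the table (adjusted p = 0.0592). Same-numbered CEA libraries deviated together in every pair for HT and NC rats, but not for EA and NC or SEA and NC rats.

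Thrsp, a cofactor of lipogenesis known for its response to thyroid hormone, had the lowest PVN value of the 34 genes. It was at 11.9, 13.4 and 16.9 CPM in NC rats and 3.25 to 13.5 CPM in operated rats of the PVN (-1.09, SE 0.27, adjusted p = 0.0772), and at 22.4, 27.2 and 36.3 CPM against 7.96 to 24.2 CPM in the CEA (-1.06, SE 0.29, adjusted p = 0.9998). In both regions 8 of 9 operated libraries lay below the NC range. Fads1, a desaturase of polyunsaturated fatty acids, was lower without overlap in both regions, at 195 to 229.9 CPM in NC rats and 105 to 182 CPM in operated rats of the PVN (-0.59, SE 0.12), and at 222 to 258 CPM against 110.3 to 201 CPM in the CEA (-0.71, SE 0.18). Its neighbour on chromosome 1, Fads2, which acts before it on the same fatty acids, was at 78.5, 89.2 and 83.2 CPM in NC rats and 36.4 to 65.7 CPM in operated rats of the CEA (-0.69, SE 0.17, adjusted p = 0.9998). In the PVN Fads2 overlapped, at 74.5, 93.5 and 85.2 CPM against 53.3 to 85.2 CPM (-0.27, SE 0.11). Fasn, the fatty acid synthase, was at 359, 472 and 451 CPM in NC rats and 347 to 459 CPM in operated rats of the PVN (-0.02, SE 0.09), and at 369.5, 413 and 389 CPM against 271 to 387 CPM in the CEA (-0.25, SE 0.10).

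**Figure D3:**
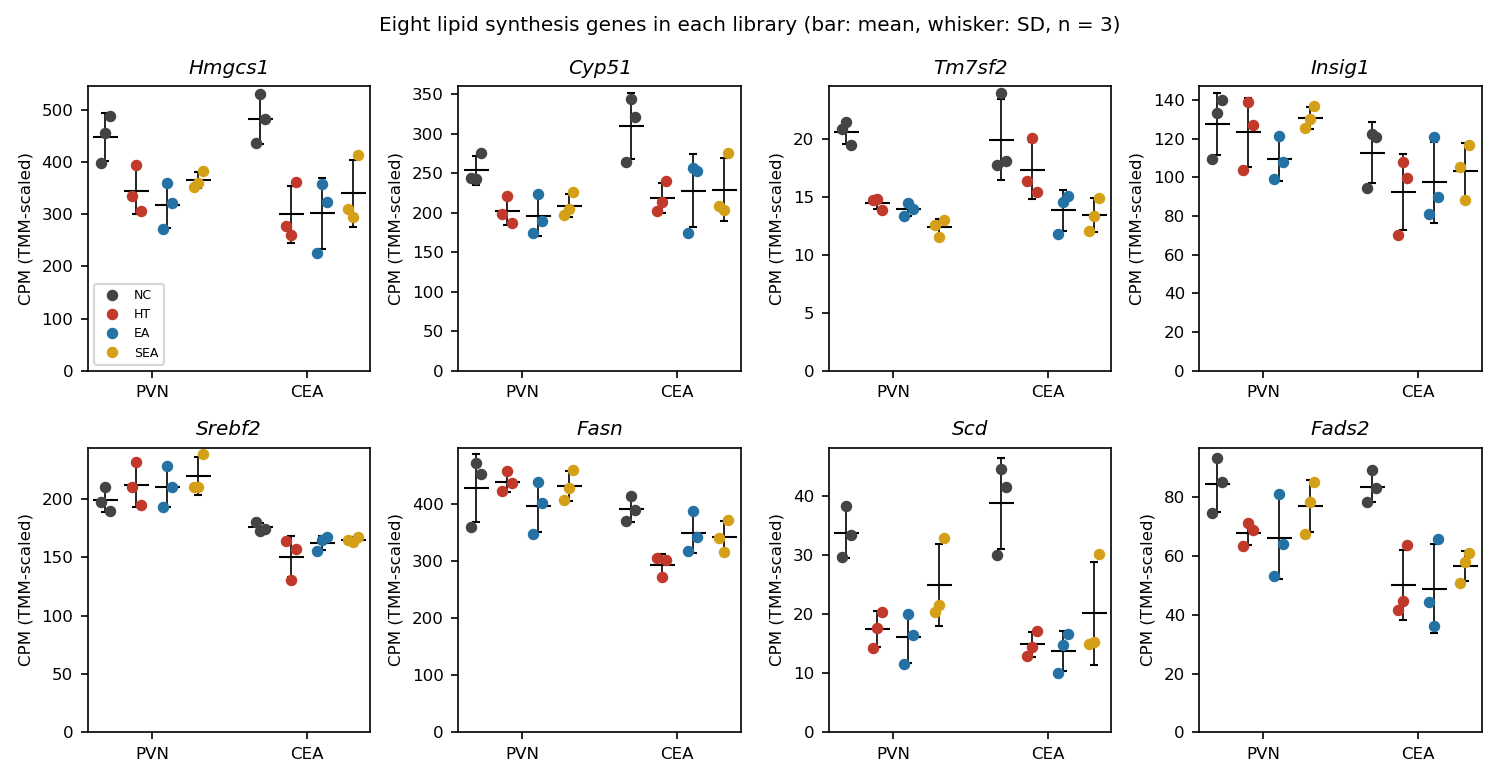
CPM of 8 genes in each of the 24 libraries, by region and coloured by treatment, with a bar for the mean and whiskers for the SD of each group of 3. The NC libraries of Hmgcs1, Scd and Fads2 stood above most operated libraries in both regions, while Srebf2 and Insig1 overlapped in the PVN.

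The summed levels of the oligodendrocyte markers, cells that make much of the brain's cholesterol, were 10445 to 17424 CPM in NC rats and 11488 to 14341 CPM in operated rats of the PVN, and 28404 to 45609 CPM against 27628 to 44226 CPM in the CEA. Of the 11 markers, 0 passed the unadjusted threshold in either region (edgeR). The astrocyte markers summed to 5134 to 5438 CPM in NC rats and 4888 to 5681 CPM in operated rats of the PVN, where 2 of 8 were higher and 2 lower at that threshold. In the CEA they summed to 5215 to 6250 CPM in NC rats and 4744 to 6264 CPM in operated rats, with 2 of 8 lower and 0 higher. In the PVN 2 of 4 vessel markers were higher, with sums of 283 to 293 CPM in NC rats and 245 to 364 CPM in operated rats, and the sum of the PVN neuron markers lay below every NC library in 6 of the 9 operated libraries. The part of these marker lists in the values of the 34 genes was not tested. In tissue of mixed cells, fewer cells of a type and less RNA per cell cannot be told apart.

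The comparison of HT with NC alone asks for the effect of surgery as a whole. The methods name isoflurane for the operation and no sham operation. Hepatectomy, incision and anaesthesia thus cannot be told apart, here or in operated against NC rats. In the PVN 0 of 34 genes passed by edgeR, compared with 0.0120% of all genes, and 3 by DESeq2 (0.167% of all genes). At the unadjusted threshold 11 were lower and 2 higher in the PVN (5.35% and 5.69% of all genes), and 12 were lower and 2 higher without overlap (8.23% and 8.88%). Thrsp was at 4.01, 6.55 and 5.79 CPM in HT rats against 11.9 to 16.9 CPM in NC rats (log2 fold change -1.37, SE 0.23, adjusted p = 0.418). Scd was at 14.3, 17.7 and 20.4 CPM against 29.6 to 38.2 CPM (-0.95, SE 0.17), and Fads1 at 125, 156 and 141 CPM against 195 to 229.9 CPM (-0.62, SE 0.11). These 3 genes did not overlap and were the DESeq2 calls. The PVN neuron markers stood lower in the same comparison, with sums of 413, 901 and 946 CPM in HT rats against 994 to 1320.2 CPM in NC rats and 2 of 5 lower at the unadjusted threshold (median -0.55). Of the astrocyte markers 2 of 8 were lower and 0 higher at that threshold. All 5 choroid plexus markers were negative, 1 of them at it (median -0.37), while 1 of 6 microglia and 1 of 4 vessel markers were higher. The part of these markers in the result was not tested. Without NC replicate 2 the edgeR calls were 11, against 20.2% of all genes.

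In the CEA 0 of 34 genes passed by edgeR (0 of all genes) and 1, Scd, by DESeq2 (0.146% of all genes). Unadjusted, 11 were past the threshold (3.75% of all genes), 11 lower and 0 higher, against 1.41% and 2.35%. Of the 33 tested, 17 were lower and 0 higher without overlap, against 5.69% and 4.72%. The median was -0.30 against 0.02 for all genes. Scd was at 12.9, 14.5 and 17.2 CPM in HT rats and 30.0, 44.5 and 41.5 CPM in NC rats (-1.36, SE 0.20, adjusted p = 0.546). Fads2 was at 41.8, 44.7 and 63.9 CPM against 78.5 to 89.2 CPM (-0.72, SE 0.18, adjusted p = 0.918), and Hmgcs1 at 278, 260.0 and 361 CPM against 436 to 530.0 CPM (-0.67, SE 0.17, adjusted p = 0.918). Without NC replicate 2 or without NC replicate 3, the count at an unadjusted p under 0.05 was 5. The microglia markers summed to 380 to 397 CPM in HT rats and 275 to 362 CPM in NC rats, with 2 of 6 higher at the unadjusted threshold (median 0.25), and the choroid plexus markers had a median of -2.36, with 1 of 5 lower. Of the astrocyte markers 2 of 8 were lower and 1 higher at that threshold, and 1 of 4 vessel markers was higher. The part of these markers in the result was not tested.

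The comparisons among operated rats ask what current or needles added to surgery. In each of the 6 comparisons 0 of the genes passed by edgeR or by DESeq2. In the PVN, edgeR called 0.0961% of all genes in EA against HT and 0 in SEA against HT and EA against SEA. The PVN values of EA rats lay mostly on the low side, with 28 of 33 tested genes negative against HT (median -0.09, all genes 0.00057) and 29 of 33 negative against SEA (median -0.12, all genes -0.00096). These comparisons share the EA libraries. The median against HT ran from -0.16 without EA replicate 2 to -0.03 without EA replicate 1 and -0.02 without HT replicate 2, and the median against SEA from -0.19 without EA replicate 2 to -0.08 without SEA replicate 3. In EA against HT, 3 genes were past the unadjusted threshold (5.67% of all genes), all 3 lower (3.57%) and 0 higher (2.10%), with 3 lower and 0 higher without overlap (5.85% and 5.41%). In the same comparison all 5 PVN neuron markers had positive values (median 0.43), 2 of them at the unadjusted threshold, and 2 of 5 choroid plexus markers were higher at that threshold (median 0.55; 3 of 5 higher without overlap). Their part in the result was not tested. In EA against SEA, 8 were past it (5.21% of all genes), all 8 lower (3.0%) and 0 higher (2.20%), with 6 lower and 2 higher without overlap (5.02% and 5.14%). The count of 8 was 1 when the spread was estimated over the 12 PVN libraries and 2 without SEA replicate 3.

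Srebf1 had the smallest p in both. It was at 69.3, 71.4 and 68.8 CPM in EA rats, 77.5, 82.0 and 81.3 CPM in HT rats and 81.5, 78.1 and 80.4 CPM in SEA rats of the PVN, so that the EA libraries lay below every HT and SEA library. The log2 fold changes were -0.20 against HT (SE 0.05, adjusted p = 0.524) and -0.19 against SEA (SE 0.05, adjusted p = 0.917). Insig1 was at 99.2, 121 and 108 CPM in EA rats and 125, 129.8 and 137 CPM in SEA rats (-0.25, SE 0.07, adjusted p = 0.917). Scd was at 11.6, 20.1 and 16.4 CPM in EA rats against 20.3, 21.5 and 32.8 CPM in SEA rats (-0.63, SE 0.22, adjusted p = 0.917), and the value was -0.38 without SEA replicate 3. Mvk and Fdps, on the route to farnesyl diphosphate, were lower in EA than HT without overlap (-0.36, SE 0.12, and -0.16, SE 0.06). In SEA against HT, Scd and Me1, the malic enzyme that supplies NADPH, were higher at an unadjusted p under 0.05 (0.51, SE 0.20, and 0.13, SE 0.05; 2.41% of all genes higher), and Scap was lower (-0.18, SE 0.07; 1.97% lower), with adjusted p = 0.981 for each. These were 3 genes against 4.38% of all genes, and 2 were higher and 2 lower without overlap (5.10% and 4.74%). The Scd value was 0.26 without SEA replicate 3, and the Scap value -0.11 without HT replicate 3. In this comparison 3 of 11 oligodendrocyte markers were higher at the unadjusted threshold, as were 2 of 5 PVN neuron markers, all 5 of them positive (median 0.37), and 2 of 8 astrocyte markers were higher and 2 lower. Their part in the result was not tested.

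In the CEA the unadjusted counts were 1 higher and 1 lower in EA against HT (1.82% and 1.37% of all genes), 1 lower in SEA against HT (1.69%) and 1 higher in EA against SEA (1.15%). The striatal and central amygdala neuron markers summed to 2577 to 3526 CPM in EA rats and 4055 to 5706 CPM in HT rats, with 3 of 6 lower at the unadjusted threshold (median -0.64). In SEA against HT 2 of 5 choroid plexus markers were higher and 2 of 8 astrocyte markers lower. Their part in the result was not tested. Mvk was at 26.0, 33.6 and 32.6 CPM in HT rats, 20.9, 24.6 and 23.0 CPM in EA rats and 20.2, 21.8 and 26.4 CPM in SEA rats, with values of -0.44 (SE 0.16) and -0.47 (SE 0.17) against HT. Tm7sf2 was lower in both needled groups than in HT rats without overlap (-0.34, SE 0.19, and -0.40, SE 0.18), neither at p under 0.05. These comparisons share the HT libraries. The first value was -0.21 without HT replicate 2. In EA against HT 2 of 34 genes were lower and 2 higher without overlap (4.03% and 5.54% of all genes). In SEA against HT 1 of 33 was lower and 2 higher (3.87% and 6.22%). The gene higher at the unadjusted threshold in EA rats was Elovl6 each time. Elovl6 had 83, 16 and 14 counts in EA rats, 4, 0 and 4 in HT rats and 8, 2 and 6 in SEA rats, so EA replicate 1, also high in choroid plexus markers, held most of its counts, and no fold is given. Of the other genes ranked first by p, Scap stood at -0.28 (SE 0.18) in SEA against HT, or -0.089 without HT replicate 2, its highest library at 269.8 CPM. Fdft1, the squalene synthase, and Insig2 stood at -0.23 (SE 0.12) and -0.22 (SE 0.11) in EA against SEA, and the Fdft1 value was -0.15 without SEA replicate 3.

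**Figure D4:**
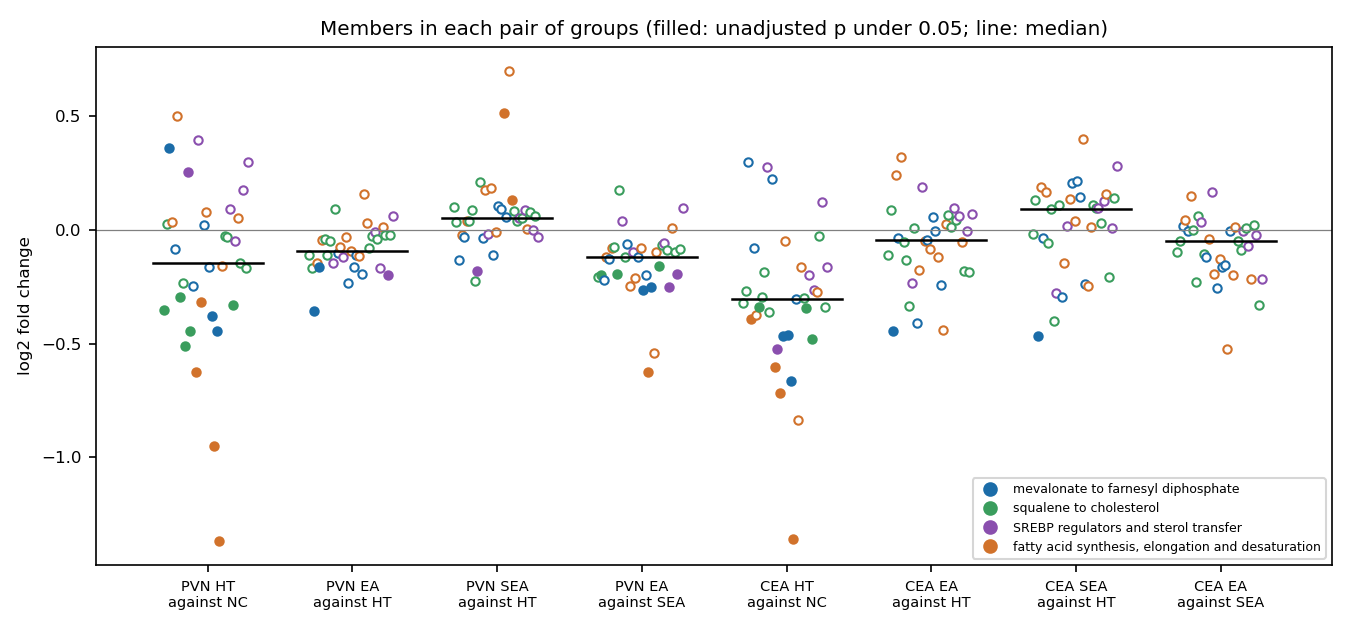
Log2 fold changes of the genes in the 8 pairs of groups, with filled points for an unadjusted p under 0.05, colours for role and a line at the median (Elovl6 is not drawn). The values of HT against NC reached down to -1.37 in the PVN and -1.36 in the CEA. The lowest values of the 6 comparisons among operated rats lay nearer to 0. The PVN medians over the tested genes of the 34 were -0.11 for HT against NC, -0.09 for EA against HT and -0.12 for EA against SEA.

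The difference between regions in these effects was tested as an interaction. For HT against NC, 0 genes passed (0 of all genes) by edgeR or DESeq2. Without adjustment the HT effect was more positive in the PVN for Fasn (0.45, SE 0.16), Acaca (0.90, SE 0.35) and Sc5d, a sterol desaturase (0.34, SE 0.14), against 7.24% of all genes, with adjusted p = 0.413 for each. For EA against HT, 0 passed by edgeR (0 of all genes) and 1, Elovl6 at its low counts, by DESeq2. Without adjustment Elovl6 and Fasn (-0.38, SE 0.16, adjusted p = 0.945) were more negative in the PVN, against 2.94% of all genes, and Tm7sf2 followed at 0.29 (SE 0.20), or 0.17 without CEA HT replicate 2 or CEA EA replicate 1.

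Over all 24 libraries, with treatment in the model, 20 of the 34 genes passed the adjusted threshold, 7 higher and 13 lower in the CEA, near the 56.3% of all 17768 genes tested (26.9% higher, 29.4% lower). Without adjustment 22 passed, against 60.7% of all genes. All 6 regulators and carriers passed. Scap was at 121 to 171 CPM in the PVN and 173 to 269.8 CPM in the CEA, the only gene higher without overlap (6.48% of all genes; log2 fold change 0.44, SE 0.05, adjusted p = 2.88e-07). Srebf2 was the only gene lower without overlap (7.87% of all genes), at 189 to 239 CPM in the PVN and 130.3 to 179.8 CPM in the CEA (-0.37, SE 0.05, adjusted p = 1.26e-06). Stard4 (0.69, SE 0.15) and Srebf1 (0.21, SE 0.06) were higher, and Insig1 (-0.27, SE 0.08) and Insig2 (-0.21, SE 0.08) lower, the last with the opposite sign in NC rats alone (0.05).

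Among the sterol enzymes 7 were lower and 2 higher in the CEA. Fdft1, the branch point from farnesyl diphosphate to sterols, was at 115 to 191 CPM in the PVN and 82.0 to 128 CPM in the CEA (-0.51, SE 0.06, adjusted p = 6.27e-08). Acat2, which makes acetoacetyl-CoA, had a value of -0.53 (SE 0.10), Mvd -0.35 (SE 0.08) and Fdps, the farnesyl diphosphate synthase, -0.32 (SE 0.05). Further down the route Sqle (-0.30, SE 0.06), Sc5d (-0.29, SE 0.05) and Nsdhl (-0.17, SE 0.06) were lower, while Hsd17b7 (0.41, SE 0.11) and Cyp51 (0.19, SE 0.07) were higher. In the fatty acid branch Thrsp was higher in the CEA, at 7.96 to 36.3 CPM against 3.25 to 16.9 CPM (1.03, SE 0.19, adjusted p = 8.39e-05), as was Acly (0.18, SE 0.05). Fads2 (-0.33, SE 0.10), Fasn (-0.31, SE 0.06) and Me1 (-0.30, SE 0.08) were lower. In NC rats alone 4 of the 33 genes tested passed (Scap, Stard4, Thrsp and Fdps), against 26.4% of all genes, and the values there were 1.30 for Stard4, -0.0155 for Fads2, -0.075 for Sc5d, -0.13 for Fasn, -0.14 for Sqle, -0.18 for Srebf2, -0.18 for Insig1, -0.30 for Acat2 and 0.29 for Cyp51. The 14 genes that did not pass included Hmgcs1 (-0.07, SE 0.08), Scd (-0.14, SE 0.13), Msmo1 (0.01, SE 0.06) and Dhcr7 (-0.02, SE 0.06). Hmgcs1 and Scd had the opposite sign in NC rats alone (0.11 and 0.20).

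**Figure D5:**
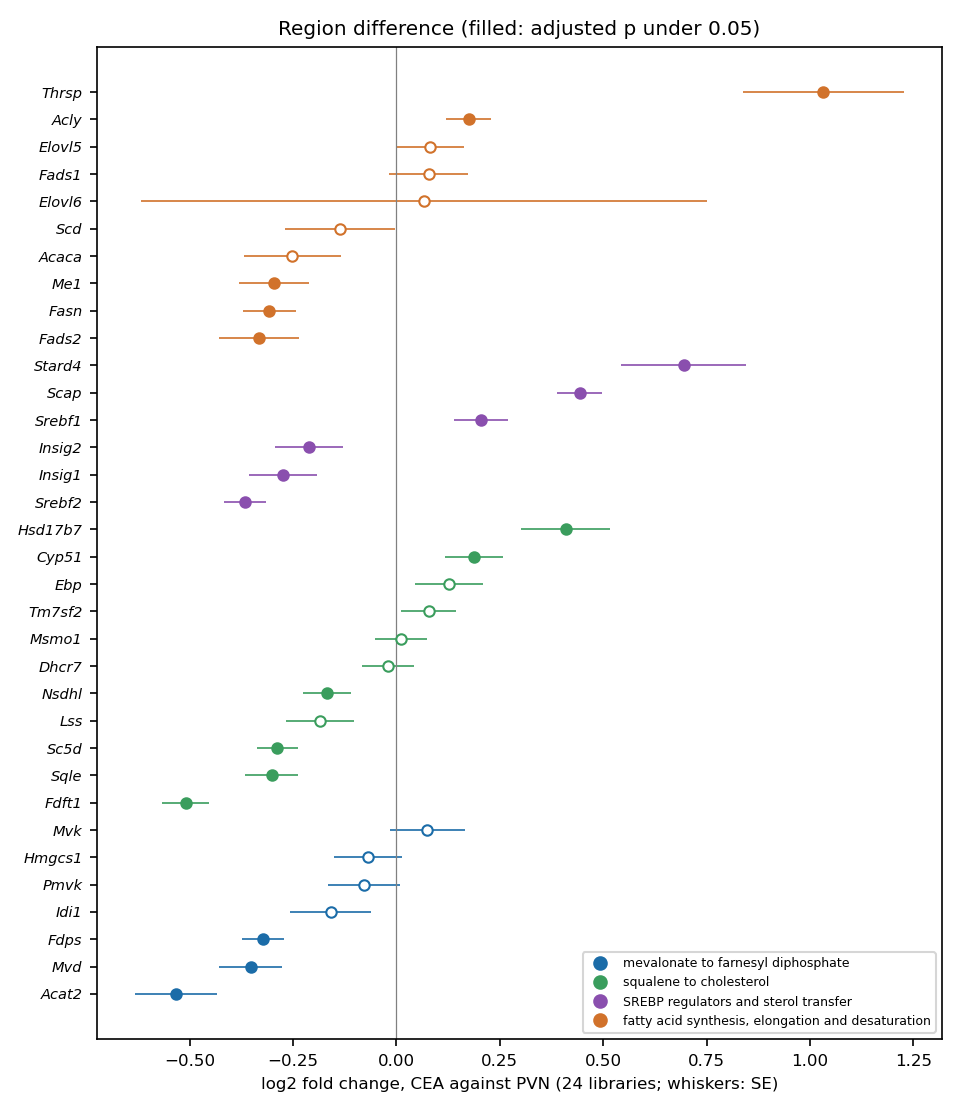
Log2 fold change of each gene in the CEA against the PVN over 24 libraries, with whiskers for SE, colours for role and filled points for an adjusted p under 0.05. Thrsp, Stard4, Scap and Hsd17b7 lay furthest to the right, and Acat2 and Fdft1 furthest to the left.

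Several cell marker lists had larger region values than these genes. The oligodendrocyte markers summed to 10445 to 17424 CPM in the PVN and 27628 to 45609 CPM in the CEA, with 11 of 11 higher without overlap and a median log2 fold change of 1.27, against -0.11 for the 34 genes. The microglial markers (6 of 6 passed, median 0.64) were higher in the CEA too. The part of cell makeup in the region values was not tested.

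Other genes of lipid handling, from lists chosen with earlier results known, were counted in the same fits. Of 15 genes of sterol export and turnover, 8 were higher and 3 lower in the CEA (26.9% and 29.4% of all genes were). Ranked by p and not by fold, the first was Cyp46a1, the neuronal enzyme that turns cholesterol into a form that leaves the brain (1.05, SE 0.07, adjusted p = 1.68e-11 by edgeR). Nr1h2, a sterol-sensing nuclear receptor (0.44, SE 0.05), and the exporter Abcg1 (0.35, SE 0.04) followed. Of 13 genes of fatty acid oxidation 2 were higher and 2 lower, among them Hadhb (-0.11, SE 0.04), a subunit of the mitochondrial trifunctional protein, and Acadl (0.18, SE 0.07), an acyl-CoA dehydrogenase. Of 13 tested genes of SREBP processing and lipogenic control 6 were higher and 4 lower, among them Mbtps2, a protease that cleaves SREBP (0.40, SE 0.05), and Prkaa1, a catalytic subunit of the kinase AMPK (-0.35, SE 0.06). In operated against NC rats 1 of these 41 genes passed (0.0639% of all genes in the PVN, 0 in the CEA), Acss2, which makes acetyl-CoA from acetate, in the PVN (-0.51, SE 0.08, adjusted p = 0.0466). In the CEA Acss2 stood at -0.46 (SE 0.15, adjusted p = 0.9998). Ch25h, which makes an oxysterol that holds back SREBP cleavage, had the opposite sign, at 1.21 in the PVN (SE 0.29, adjusted p = 0.0772) and 0.995 in the CEA (SE 0.28, adjusted p = 0.9998). Acss2 and Ch25h were chosen after their values were seen.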

How the data were processed

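mRNA was measured in 24 libraries (8 groups of 3), grouped and numbered by the sample titles. The deposited file holds unnormalized read counts for each gene, made by the authors from strand-specific libraries by trimming, mapping with HISAT2 and counting with featureCounts, versions not given in the sources used here. The methods name mRatBN7.2, while the submitters' processing notes list a human build. The table names none, and a gene on its chromosome 1 ends at 282724300, past that chromosome's end in mRatBN7.2, so coordinates are given as they stand. A second header line inside the table, which exchanges CEA EA replicates 2 and 3, was left out.

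Counts were tested in R 4.3.3 with the two-sided quasi-likelihood test of edgeR 4.0.16 on genes kept by filterByExpr, with TMM factors, and p-values were adjusted by Benjamini-Hochberg over all genes tested at a threshold of 0.05. The SE is the size of the log2 fold change divided by the root of F. Pairs of groups were fitted on their own 6 libraries, operated against NC as the mean of the 3 operated groups minus NC within a region, and the CEA against the PVN with treatment as a term. The authors used DESeq2 with an unadjusted p. DESeq2 1.42.0, RLE normalization, no filter, the replicate block, a fit over a region, within-treatment fits and leaving out each library were alternatives. Leaving out the choroid plexus libraries and the renumbered block were chosen after seeing the data. CPM values were scaled by TMM factors. A count was worth 0.0527 to 0.0788 CPM. The labels do not say that replicates came from separate rats, so p-values measure only the spread between these samples, which may be technical.

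Of the pairwise comparisons, same-numbered libraries deviated together in every pair in CEA HT against NC (correlations 0.242, 0.181 and 0.296 over genes). There the block gave 13 genes at an unadjusted p under 0.05 and 0 adjusted calls. In PVN SEA against HT all 3 correlations were also positive and above those of unlike numbers, but small (0.015, 0.047 and 0.072). Between the regions same-numbered libraries deviated together in the NC rats (0.294, 0.130 and 0.195) and, less strongly, in the SEA rats (0.188, 0.034 and 0.097). They did not do so in every pair of the HT or EA rats. The 34 genes and all lists were chosen with earlier results of these data known. Named with values are genes that passed the adjusted threshold, or else up to 3 with the smallest p per comparison, with a fixed set of 8 leading genes. Values of other genes in operated against NC rats were chosen after they were seen. Some genes of the other lipid lists are not reported here by name.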

Additional observations from a re-analysis of the deposited data

How the results depend on the processing

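The median log2 fold change of the 34 genes moved by less than 0.124, the pooled SD within groups, in every comparison and alternative, though several medians were themselves smaller than that. Of 1745 refits of 91 single-gene results, 1621 kept their direction and side of the threshold, 82 lost a call, 35 gained one and 7 changed sign, namely Insig2 in the CEA against the PVN within NC (0.053) and, in the PVN operated against NC, Srebf1 without NC replicate 1, Sqle without NC replicate 2 (0.0016) or 3 (0.017) and Fasn without NC replicate 2, NC replicate 3 (0.020) or EA replicate 1 (0.0023). Over single libraries left out Srebf1 ran from -0.027 to 0.20, Sqle from -0.10 to 0.017 and Fasn from -0.13 to 0.057. The cause was not tested in any of these.

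Counts of genes moved more. With DESeq2 the adjusted calls were 12 in the PVN operated against NC, 3 in PVN HT against NC, 1 in CEA HT against NC, 1 in CEA operated against NC and 1 in the EA interaction. With the replicate block the adjusted calls were 0 in the PVN operated and 1 in the CEA operated comparison, and the unadjusted counts were 7 in PVN EA against HT, 5 in PVN SEA against HT, 12 in PVN EA against SEA and 6 in the HT interaction. With the renumbered block 0 of the 34 genes passed in CEA operated against NC. The block gave a smaller change in the other comparisons. Among the comparisons with block counts in this paragraph, same-numbered libraries deviated together in every pair only in PVN SEA against HT. Its correlations were small (0.015, 0.047 and 0.072). Same-numbered libraries also did so in CEA HT against NC, where 0 genes passed the adjusted threshold with or without the block. Without the filter the unadjusted counts were 5 in PVN SEA against HT, 5 in the HT interaction and 1 in the EA interaction. Over 12 libraries they were 1 in PVN EA against SEA, 1 in CEA EA against HT and 2 in CEA SEA against HT. Within NC, HT, EA and SEA the region comparison gave 4, 5, 9 and 9 adjusted calls (26.4%, 21.3%, 27.8% and 30.5% of all genes) and, within the NC, HT and EA rats, 8, 10 and 10 unadjusted. Without the 3 choroid plexus libraries the unadjusted count in CEA operated against NC was 6.

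Leaving out single libraries gave 0 to 15 adjusted calls in PVN operated against NC (15 without NC replicate 2) and 0 to 11 in PVN HT against NC (11 without NC replicate 2), with 8 to 17 unadjusted in the latter (8 without HT replicate 1 or 3). The unadjusted counts ran from 10 to 19 in CEA operated against NC (10 without NC replicate 2), 5 to 12 in CEA HT against NC, 1 to 5 in PVN EA against HT (1 without EA replicate 3), 1 to 7 in PVN SEA against HT (7 without HT replicate 2), 2 to 14 in PVN EA against SEA (14 without EA replicate 2, 2 without SEA replicate 3), 1 to 4 in CEA EA against HT, 0 to 1 in CEA SEA against HT, 0 to 3 in CEA EA against SEA, 1 to 8 in the HT interaction (8 without CEA HT replicate 3) and 1 to 3 in the EA interaction. In the HT interaction 0 to 1 passed the adjusted threshold, Acaca without PVN NC replicate 2.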

Other observations

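Single libraries often held the extreme values of the 34 genes. Among the 9 operated libraries of the PVN, SEA replicate 3 was the highest for 16 genes and HT replicate 2 for 14, while EA replicate 1 was the lowest for 18. Among the 9 operated libraries of the CEA, SEA replicate 3 was the highest for 13 genes and EA replicate 1 the lowest for 12. The sources do not tie single libraries to rats.

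Elovl6 showed a second library far above the rest. PVN HT replicate 3 had 58 counts of it, against 1 to 16 in the other PVN libraries, and the same library had the lowest sum of PVN neuron markers in the PVN, at 413 CPM against 886 to 1320.2 CPM. The part of these cells in this value was not tested.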
